A study of Mus musculus with 28 samples.

Results

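Monocyte-derived cells lacking Trem1 were set against wild-type (WT) ones 1 day after their transfer, when both were recovered from a small intestine that had not been operated on. The comparison took the 5 Trem1-/- and the 5 WT samples of this setting, 10 of the 28 samples of the series, and every non-housekeeping target with a value in both genotypes, which gave 55 of the 72 targets listed. Donors were Trem1-/- or WT, the WT ones being C57BL/6. Every recipient was a C57BL/6 CCR2-/- mouse, which keeps few blood monocytes of its own because that chemokine receptor is needed for them to leave the marrow. In each recipient 100 donor-derived cells were sorted and their RNA was measured by NanoString nCounter, a method that counts colour-coded probes. The 7 Trem1-/- and 5 WT samples from surgically inflamed intestine, and 3 bone marrow monocyte samples of each genotype, were used only to see where the genotype difference changed. The labels gave neither the Trem1 allele's construction nor whether donors were pooled. Samples were numbered by recipient mouse, so p-values measure the spread between recipients. For intestinal samples, Trem1-/- mice and WT mice below mean the recipients of Trem1-/- or WT donor cells. For marrow samples they mean mice of that genotype.

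TREM1 is an activating receptor of the immunoglobulin superfamily on monocytes and neutrophils. It signals through the adaptor DAP12 and the kinase Syk, and amplifies responses that start at Toll-like receptors, partly through CARD9 and NF-kappaB. Monocytes that enter the gut wall turn over several days into macrophages, losing Ly6C and gaining MHC class II and CX3CR1. That course depends on the transcription factor PU.1, the product of Spi1, and on the growth factor receptor encoded by Csf1r.

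Levels below are normalised counts: barcode counts with the deposited multiplier divided out, scaled in each sample by the housekeeping genes Actb, Gapdh and Rpl19. Each target was read by its own probe pair after pre-amplification, so levels of different genes cannot be set against each other. The log2 fold changes are Trem1-/- over WT, fitted with edgeR's quasi-likelihood test on the 22 intestinal samples and adjusted by Benjamini-Hochberg over 55 genes, with a threshold of 0.05. In sorted cells, fewer cells of a type and less RNA per cell cannot be told apart.

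Technical values were compared first. Total gene counts were 720570 to 1326236 in Trem1-/- samples and 1095836 to 1466732 in WT samples, a log2 difference of -0.44 (exact permutation test, two-sided, p = 0.0317, adjusted over 6 measures 0.0952). The spiked-in positive controls averaged 1281 ± 414 in Trem1-/- samples and 649 ± 95.8 in WT samples (SD, n = 5 each), and the groups did not overlap (exact permutation test, p = 0.0079, the smallest the design allows; adjusted 0.0476). Gapdh made up 9.58 ± 1.06% of the total count in Trem1-/- samples and 7.01 ± 0.61% in WT samples (SD, n = 5 each; exact permutation test, adjusted over 3 genes p = 0.0238). By the same test, Actb made up 14.57 ± 1.75% and 12.38 ± 0.84% (adjusted p = 0.0714). Rpl19 made up 0.235 ± 0.040% and 0.208 ± 0.030% (adjusted p = 0.27). Each scaling gene thus averaged a larger share in Trem1-/- samples. A difference between assay runs and a difference between genotypes cannot be told apart from these values, and their part in the gene results was not tested. Between 52 and 55 of the 55 targets were above background in each Trem1-/- sample, and 54 or 55 in each WT sample. In each genotype 3 samples were deposited as whole counts (Trem1-/- mice 1, 2 and 3, WT mice 1, 2 and 5) and 2 as counts times 1.33 or 1.333. No source used here gave a reason for the multiplication. It is treated below as a class of samples, since levels moved with it.

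Trem1 itself could not serve as a check of the labels, because its entries were blank in the Trem1-/- samples, as they were in the bone marrow samples of both genotypes. In WT cells of the control intestine its level was 740.2, 617.3, 3176, 1365 and 301.2 in mice 1 to 5, above background in 5 of 5. The WT cells therefore varied widely in the receptor's own transcript, with a mean of 1240 ± 1149 (SD, n = 5).

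With housekeeping scaling, Trem1-/- cells had less Spi1 and less Nfkb2 than WT cells, and no gene passed the test in the other direction. These were 2 of 55 genes, or 3.64% of all genes tested. A further 13 genes reached an unadjusted p below 0.05 without passing the adjusted threshold, 15 in all with the called pair. The median log2 fold change of all 55 genes was -0.33, and 40 of the 55 lay below 0. That count moved with the scaling. It was 29 with total-count scaling, 25 with TMM or DESeq2 scaling and 53 with positive-control scaling. Neither Spi1 nor Nfkb2 passed with total-count, TMM or DESeq2 scaling, and DESeq2 called Tnf higher.

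**Figure D1:**
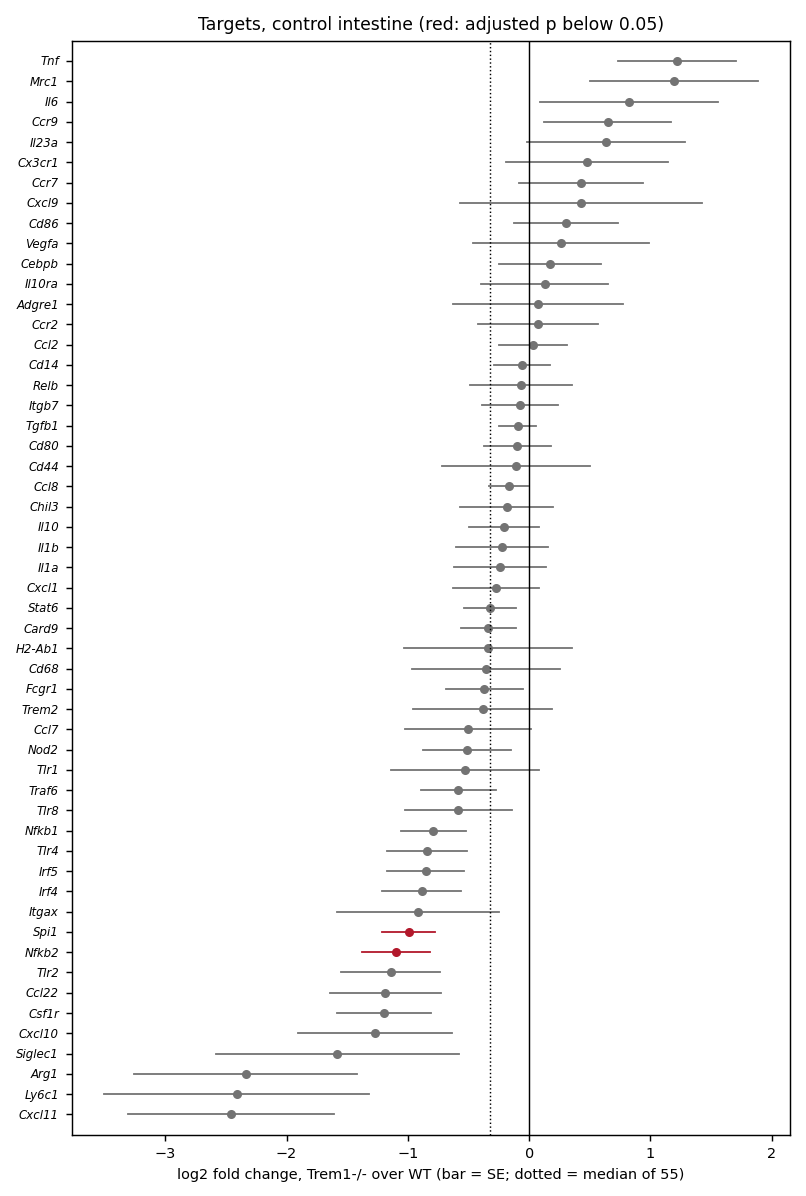
Log2 fold change of individual targets, Trem1-/- over WT, in cells of the control intestine, with bars of 1 SE and a dotted line at the median of all 55, -0.33. The red points, Spi1 and Nfkb2, are the pair past the adjusted threshold with housekeeping scaling. They are not the largest changes: Cxcl11, Ly6c1 and Arg1 lie below -2 with wide bars.

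Spi1 encodes PU.1, the factor that sets up the monocyte and macrophage programme. Its level was 55339, 57762, 43598, 31018 and 36955 in Trem1-/- mice 1 to 5, against 84805, 84447, 96647, 79405 and 101313 in WT mice 1 to 5. Every Trem1-/- sample lay below every WT sample. The log2 fold change was -0.99 ± 0.22 (SE; edgeR, adjusted p = 0.00932), or -0.67 relative to the median gene. The call ended when samples were scaled by total count (-0.70, adjusted p = 0.123), by edgeR's TMM factors (-0.45, adjusted p = 0.422) or by DESeq2's size factors (-0.46, adjusted p = 0.468). It was kept in each of the 22 fits that left out 1 sample. Leaving out an inflamed sample cannot move the fold change in control intestine. Without 1 of the 10 control samples the fold change ran from -1.10 to -0.88, with adjusted p up to 0.0414 in edgeR.

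Nfkb2 encodes the precursor of an NF-kappaB subunit of the non-canonical pathway and is itself a target gene of NF-kappaB. It stood at 7150, 4445, 6051, 6043 and 8577 in Trem1-/- mice and at 6829, 16076, 22681, 13525 and 9957 in WT mice. WT mouse 1 lay within the Trem1-/- range and the other WT samples lay above it. Its log2 fold change was -1.10 ± 0.28 (SE; edgeR, adjusted p = 0.0206), or -0.77 relative to the median gene. The call was lost under the same 3 scalings, in a fit of the 10 control samples alone (-1.10, adjusted p = 0.123), and when WT mouse 2 or 3 or Trem1-/- mouse 2, 3 or 4 was left out (-1.04, -0.85, -0.99, -1.08 and -1.08, adjusted p between 0.0591 and 0.0686).

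Nfkb2 has promoter windows in the RefSeq table used here (GRCm38.p6), each running from 250 bases before a transcript start to 50 after it. Each of its 3 windows holds a match to the motif of the NF-kappaB pathway that TREM1 feeds; the third overlaps the second and its match is the same site, so the first and second are shown. Capitals mark matches on either strand to the 10-letter kappaB consensus.
Nfkb2, chr19:46304487-46304786, plus strand: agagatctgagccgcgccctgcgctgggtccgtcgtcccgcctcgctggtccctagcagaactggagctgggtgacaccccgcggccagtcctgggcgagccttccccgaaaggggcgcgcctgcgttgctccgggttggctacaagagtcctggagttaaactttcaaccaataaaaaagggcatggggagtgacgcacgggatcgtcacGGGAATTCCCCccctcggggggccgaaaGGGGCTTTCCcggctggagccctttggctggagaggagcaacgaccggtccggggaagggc
Nfkb2, chr19:46305445-46305744, plus strand: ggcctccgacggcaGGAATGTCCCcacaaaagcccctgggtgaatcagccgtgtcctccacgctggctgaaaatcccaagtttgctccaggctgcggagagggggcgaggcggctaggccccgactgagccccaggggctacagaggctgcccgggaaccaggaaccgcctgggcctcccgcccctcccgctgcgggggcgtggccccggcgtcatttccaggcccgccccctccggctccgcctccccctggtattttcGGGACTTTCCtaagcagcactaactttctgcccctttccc
The kappaB matches start at bases 212, 213 and 240 of the first window, the first and second of them overlapping, and at bases 15 and 261 of the second window. The kappaB consensus was present in 4.5% of the 32851 promoter windows of the table. It was in 8 of the 40 windows searched for measured genes (20%), and 3 of these were Nfkb2's own, partly overlapping. By gene, these were 6 of the 35 measured genes whose windows were searched: Nfkb2, Cxcl1, Cxcl10, Il6, Tlr2 and Vegfa. The 40 windows cover only part of the 55 measured genes, and the 32851 were not restricted in that way. The shares therefore come from unlike sets and were not tested against each other. The other called gene, Spi1, had no window in the table. The PU.1 core GAGGAAGT was in 3.20% of all windows and in none of those of Nfkb2. A match is a description of these letters and not of binding.

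Among the NF-kappaB subunits, Nfkb1, the gene of the canonical DNA-binding subunit's precursor, was at 27813, 30291, 21814, 16650 and 19121 in Trem1-/- mice and at 32754, 31221, 49227, 37923 and 48752 in WT mice. The groups did not overlap, but the fold change missed the threshold (-0.79 ± 0.27 SE; edgeR, adjusted p = 0.0796). Relb, the usual partner of the Nfkb2 product, differed by -0.07 (adjusted p = 0.919). So 1 of 3 subunits (Nfkb2) was called lower with housekeeping scaling, beside 2 of all 55 genes (3.64%). The list's median was -0.79, beside -0.33 over all 55 genes. Relb was above 0 under total-count, TMM and DESeq2 scaling, and the other subunits stayed below it.

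Among the other transcription factors of the myeloid list, all but Cebpb had log2 fold changes below 0 and none passed the test. Irf4, tied to dendritic cells and alternative activation, differed by -0.88 (adjusted p = 0.0834), and WT mouse 5, at 2150 where the other WT mice had 5381 to 6708, was at the level of the Trem1-/- mice. Irf5, tied to inflammatory macrophages, differed by -0.85 (adjusted p = 0.0834). Stat6, which relays interleukin-4, differed by -0.33 and Cebpb, a driver of inflammatory genes, by 0.17. Of the 6 factors 1 (Spi1) was called lower with housekeeping scaling, beside 3.64% of all 55 genes, and their median was -0.87. In the same list 5 of 6 were below 0 with housekeeping scaling and 4 of 6 with TMM scaling, where Cebpb and Stat6 were above 0.

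Csf1r, the receptor through which monocytes and macrophages receive CSF1, was at 12522, 6267, 12735, 23838 and 23673 in Trem1-/- mice and at 25461, 41643, 52775, 37019 and 23980 in WT mice. The highest Trem1-/- sample lay just under the lowest WT sample. The fold change was -1.19 ± 0.39 (SE; edgeR, adjusted p = 0.0785), and it passed the threshold with the class block (-1.28, adjusted p = 0.0109) and in DESeq2 (-0.85, adjusted p = 0.0453). Spi1, Csf1r and Nfkb1 were among the 4 of 55 genes whose groups did not overlap, a background share of 7.27%, and all 4 were lower in Trem1-/- cells. Exact permutation tests of each gene gave 9 genes with an unadjusted p below 0.05 and 0 after adjustment, where the smallest adjusted p was 0.109. The smallest p these tests allow is 0.0079, and adjusted over 55 genes it stays above 0.05 where few genes reach it.

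**Figure D2:**
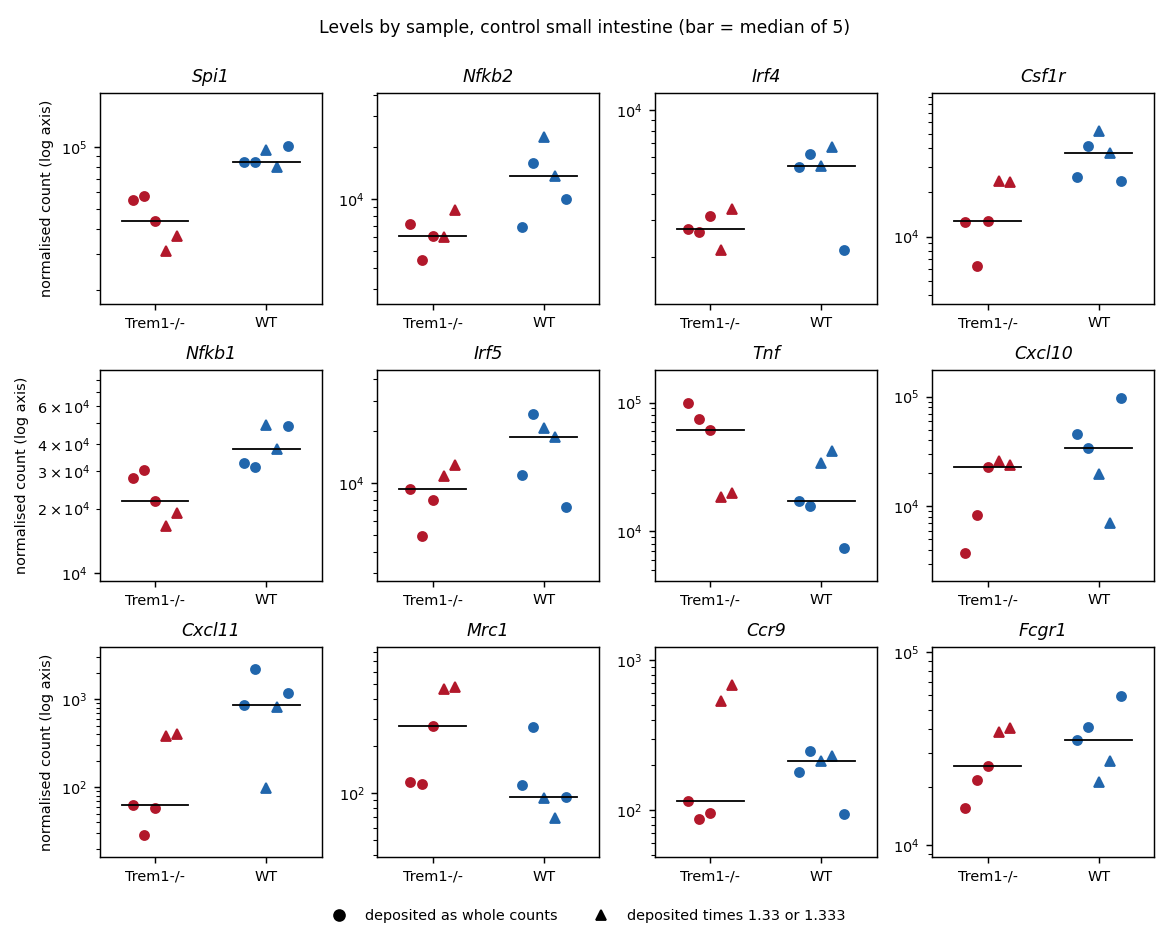
Normalised counts (log axes) of 12 genes in the 5 Trem1-/- samples, left, and the 5 WT samples, right, of the control intestine; circles are samples deposited as whole counts, triangles those multiplied by 1.33 or 1.333, and bars are medians. Spi1, Csf1r and Nfkb1 do not overlap between genotypes, and for Tnf, Ccr9 and Cxcl11 the Trem1-/- triangles stand apart from the Trem1-/- circles.

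Of the pattern recognition receptors 0 passed in the main edgeR fit, and Tlr2 and Tlr4 had an unadjusted p below 0.05. Among whole-count samples edgeR called Tlr1, Tlr2, Tlr4 and Tlr8 lower, and among multiplied samples none of the receptors. All 6 measured had a log2 fold change below 0, with a median of -0.56, but Cd14 was above 0 under total-count, TMM and DESeq2 scaling. Tlr2, a receptor for bacterial lipopeptides, differed by -1.14 ± 0.41 (SE; edgeR, adjusted p = 0.0806), with 16.6 to 92.2 in Trem1-/- mice and 61.2 to 132 in WT mice, close to the background limits of 20.6 to 47.5 and 26.3 to 46.7 counts. Tlr4, the receptor for lipopolysaccharide, was at 7261 to 8996 in Trem1-/- mice and at 8802 to 19684 in WT mice (-0.84, adjusted p = 0.0856). Nod2, a sensor of muramyl dipeptide, differed by -0.51, Tlr8 by -0.59 and Tlr1 by -0.53. Cd14, the co-receptor of Tlr4, differed by -0.06 (adjusted p = 0.892).

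Of the signalling genes nearest to TREM1, Card9, an adaptor downstream of Syk, was at 22833, 23122, 21942, 12792 and 13138 in Trem1-/- mice. WT mice had 23841, 20635, 32538, 20847 and 20598. The log2 fold change was -0.34 ± 0.23 (SE; edgeR, adjusted p = 0.41), and the low Trem1-/- samples were mice 4 and 5. Trem2, a receptor of the same family that also uses DAP12, was at 2264, 1419, 2392, 3483 and 3510 in Trem1-/- mice and at 1987, 2439, 7203, 4912 and 482.2 in WT mice, with overlapping groups (-0.38, adjusted p = 0.757). Traf6, which carries Toll-like receptor signals to NF-kappaB, differed by -0.58 (adjusted p = 0.246).

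Of 5 inflammatory cytokines 0 passed in the main edgeR fit, where Tnf alone had an unadjusted p below 0.05. Tnf was called higher in DESeq2 and by edgeR among whole-count samples. Tnf was at 99281, 73867, 61102, 18418 and 19734 in Trem1-/- mice and at 17314, 15788, 34140, 42326 and 7469 in WT mice. Trem1-/- mice 1, 2 and 3 were above all WT mice, and mice 4 and 5 were within the WT range. The log2 fold change was 1.22 ± 0.49 (SE; edgeR, adjusted p = 0.0856). It was 2.02 in DESeq2 (adjusted p = 0.0113) and -0.17 when samples were scaled by the positive controls. Il1b differed by -0.22, Il1a by -0.24, Il23a by 0.63 and Il6 by 0.82. Il6 was near background in some samples, at 19.6 to 335 in Trem1-/- mice and 41.4 to 75.6 in WT mice. The repair and anti-inflammatory genes Il10, Il10ra, Tgfb1 and Vegfa lay between -0.21 and 0.26.

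Of 3 chemokines induced by interferon 0 passed in the main edgeR fit, where Cxcl11 alone had an unadjusted p below 0.05. Among whole-count samples edgeR called Cxcl10 and Cxcl11 lower, and among multiplied samples neither. Cxcl11 was at 62.0, 28.6, 57.2, 382 and 402 in Trem1-/- mice and at 850, 2190, 97.0, 807 and 1175 in WT mice. WT mouse 3 was the exception among the WT samples, and the groups overlapped through it (-2.46 ± 0.85 SE; edgeR, adjusted p = 0.0796). DESeq2 placed Cxcl11 past the threshold (-2.41, adjusted p = 0.0187). Cxcl10 was at 3797, 8421, 22667, 25843 and 23717 in Trem1-/- mice and at 45377, 33971, 19814, 7020 and 97128 in WT mice (-1.27, adjusted p = 0.201; -0.65 without WT mouse 5). Cxcl9 differed by 0.43. The dendritic cell chemokine Ccl22 differed by -1.19 (adjusted p = 0.0856), and the monocyte attractants Ccl2, Ccl7 and Ccl8 by 0.03, -0.50 and -0.17.

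Several other large fold changes rested on WT mouse 5. Arg1, the arginase of alternatively activated macrophages, was at 87.6, 352, 180, 260 and 351 in Trem1-/- mice and at 590, 386, 290, 224 and 4723 in WT mice. The log2 fold change was -2.34 (edgeR, adjusted p = 0.0856) and, without WT mouse 5, -0.60. Siglec1, a sialic acid receptor of macrophages, was at 1151, 2365, 1945, 3067 and 5773 in Trem1-/- mice and at 3837, 5568, 2216, 3033 and 28140 in WT mice, with a fold change of -1.58 that became -0.36 without that mouse. Ly6c1, taken here as a monocyte marker, was at 3438, 1075, 913, 1328 and 4541 in Trem1-/- mice and at 17642, 2020, 1437, 2361 and 36606 in WT mice. The WT levels of mice 1 and 5 set its fold change of -2.41 (adjusted p = 0.141), which was -1.38 without mouse 5.

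Mrc1, the mannose receptor, ran the other way, at 118, 114, 270, 467 and 482 in Trem1-/- mice and 113, 265, 93.0, 69.6 and 94.4 in WT mice (1.19, adjusted p = 0.305). Chil3 and Stat6, other genes of alternative activation, differed by -0.19 and -0.33. Of that list's 5 genes none passed in the main edgeR fit or DESeq2. Arg1 and Irf4 had an unadjusted p below 0.05 in that edgeR fit. Mrc1 alone was above 0 in it, where TMM scaling put 3 of 5 above 0. By class, edgeR called Arg1 lower among whole-count samples and Mrc1 higher among multiplied ones. Retnla, a further gene of the kind, was blank in the Trem1-/- samples. WT mice had 40.4, 37.3, 53.0, 7358 and 68.5, so that mouse 4 alone stood far from background.

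The sorted cells were checked against markers of the cell types they could hold. Monocyte markers with values included Ly6c1, Ccr2, Csf1r, Spi1 and Cd14, and the list's summed level was 206192 to 248996 in Trem1-/- mice and 268664 to 347646 in WT mice. The sum weights each gene by its own probe pair and includes Spi1. Of the 6 genes 1 (Spi1) was called lower with housekeeping scaling, beside 3.64% of all 55 genes. Of the 6, 5 were below 0 (4 with TMM scaling), and the median log2 fold change was -1.0, beside -0.33 over all 55. Ccr2, needed for monocyte exit from marrow, differed by 0.07. Macrophage markers summed to 21562 to 71020 in Trem1-/- mice and 42877 to 65049 in WT mice, and dendritic cell markers to 64810 to 148002 and 101213 to 165233. These sums are weighted by probe pair as well. Fcgr1 and Cd68 made up most of the macrophage sum and H2-Ab1 most of the dendritic cell sum, so neither sum measures a cell type. Within the macrophage list Adgre1, Cx3cr1, Cd68 and Fcgr1 differed by 0.07, 0.47, -0.36 and -0.37, with adjusted p of 0.552 or more. The part of these cell types in the gene results was not tested. Neutrophil, eosinophil, B cell and epithelial markers had no values, and of the T cell markers only Ccr9, at 87.3 to 680 in Trem1-/- mice and 94.4 to 247 in WT mice, was measured.

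Besides Spi1, the genes with the highest normalised counts, which depend on the probe pair as well as the gene, were Tgfb1, H2-Ab1, Ccr2 and Chil3, and none of these 4 passed the test. Tgfb1, a cytokine of tissue repair, was at 115955, 118276, 101093, 95544 and 99865 in Trem1-/- mice and at 110944, 111061, 124238, 100867 and 119961 in WT mice (-0.10, adjusted p = 0.757). H2-Ab1, an MHC class II chain, was at 65180, 58646, 75123, 141109 and 116446 in Trem1-/- mice and at 134856, 104141, 87587, 91794 and 159722 in WT mice (-0.34, adjusted p = 0.81). The highest Trem1-/- levels of H2-Ab1 were in mice 4 and 5. The same pair was highest for Ccr2, at 49468, 58238, 72146, 130843 and 125551 in Trem1-/- mice and at 82537, 137156, 71435, 69014 and 54844 in WT mice. Chil3, a chitinase-like protein gene, was at 67556, 99641, 48773, 49613 and 50824 in Trem1-/- mice and at 144900, 63261, 64290, 54674 and 32556 in WT mice. Itgb7, an integrin chain for gut homing, differed by -0.08, Ccr7, which guides cells to lymph nodes, by 0.43, and Cd80, Cd86 and Cd44 by -0.10, 0.30 and -0.11.

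Within the Trem1-/- group, the 3 whole-count samples and the 2 multiplied samples formed separate sets. For 41 of 55 genes (74.5%) the whole-count and multiplied Trem1-/- samples did not overlap, with the multiplied pair higher for 31 and lower for 10. In the WT group this held for 16 of 55 genes (29.1%), 8 in each direction. Spearman correlations over the 55 genes had a median of 0.973 between Trem1-/- samples of the same class and 0.908 between Trem1-/- samples of different classes, against 0.934 and 0.926 between WT samples and 0.931 between genotypes. The genes share their libraries, so these are descriptions. Positive-control means were 1411 to 1783 in whole-count Trem1-/- samples and 797 to 914 in multiplied ones.

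The genotype difference was then compared between the classes, which are not the same treatment in both genotypes: the multiplied WT samples carry 1.333 on genes and control probes, and the multiplied Trem1-/- samples 1.33 on genes alone. A part of the class and a part of the genotype therefore cannot be told apart. A term for the difference of the genotype effect between whole-count and multiplied samples, added after the data were seen, passed the threshold for 14 of 55 genes (25.5%). Tnf was higher in Trem1-/- mice among whole-count samples (2.53) and below WT among multiplied samples (-1.0), a difference of 3.53 ± 0.59 (SE; edgeR, adjusted p = 0.000657). Cxcl11 differed between genotypes by -4.82 among whole-count and by -0.21 among multiplied samples, Cxcl10 by -2.34 and 0.89, Siglec1 by -2.78 and 0.75, Ly6c1 by -3.37 and 0.63, and Arg1 by -3.20 and 0.25. Without WT mouse 5, a whole-count sample, Cxcl10, Ly6c1 and Arg1 lost the call for this change with class, while Cxcl11 and Siglec1 kept it. For Mrc1 the values were 0.09 and 2.54, for Ccr9, a receptor for homing to the small intestine, -0.81 and 1.45, and for Fcgr1, a high-affinity IgG receptor, -1.09 and 0.69. Il6 had -0.91 and 1.78 and Tlr1 -2.15 and 0.68. Card9, Cd14 and Itgb7 had 0.06, 0.43 and 0.53 among whole-count samples and -1.04, -0.73 and -0.94 among multiplied ones.

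The same fit gave 17 genes past the threshold among whole-count samples (30.9%) and 6 among multiplied samples (10.9%). Spi1 was past it in both, at -0.79 (adjusted p = 0.0029) among whole-count and -1.37 (adjusted p = 0.000451) among multiplied samples. Nfkb2 was as well, at -0.90 (adjusted p = 0.0458) and -1.31 (adjusted p = 0.0449), but a fit of the whole-count samples alone gave an adjusted p of 0.0979. Neither was among the genes whose difference changed with the class. Of the 14 that were, Ccr9, Fcgr1, Mrc1, Siglec1 and Tnf kept the call in all 6 fits that left out 1 whole-count sample of the control intestine. With the class as a block in the genotype fit, 6 of 55 genes fell and none rose, among them Spi1, Nfkb2, Csf1r, Nfkb1 and Tlr2.

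**Figure D3:**
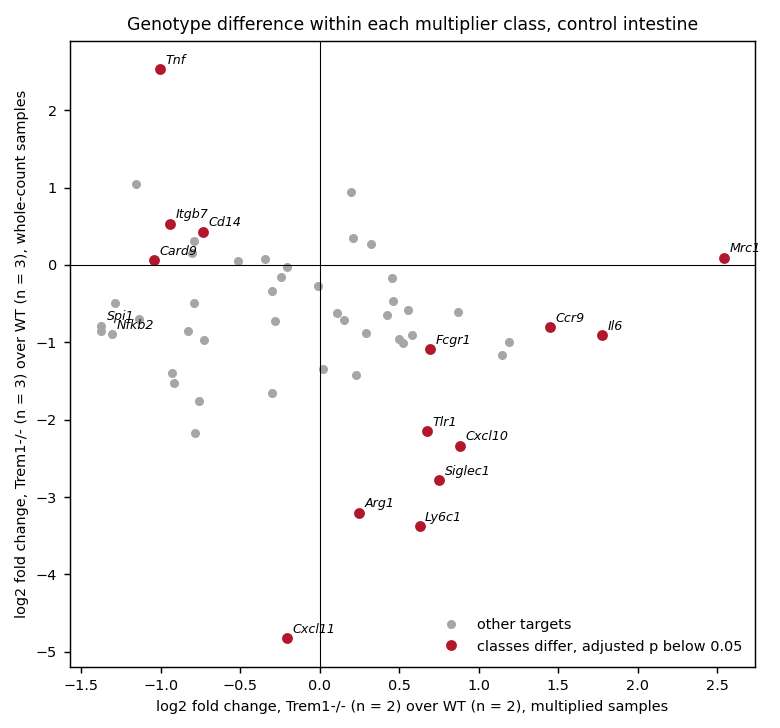
Genotype difference of the 55 targets (log2 fold change, Trem1-/- over WT) among the whole-count samples (3 against 3, vertical) and among the multiplied samples (2 against 2, horizontal). Red points are the 14 genes whose difference changed with the class; Tnf lies at 2.53 and -1.0, while Spi1 and Nfkb2 lie below 0 on both axes.

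The scaling set how many genes passed. With the positive controls in place of housekeeping genes, the median log2 fold change was -1.24 and 29 of 55 genes were called, all lower. With TMM factors the median was 0.16 and no gene passed, with 9 at an unadjusted p below 0.05. With total counts it was -0.03, again with 0 past the threshold and 9 below 0.05 unadjusted. DESeq2, with a median of 0.14, called Tnf higher and Cxcl11 and Csf1r lower, and neither Spi1 nor Nfkb2.

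**Figure D4:**
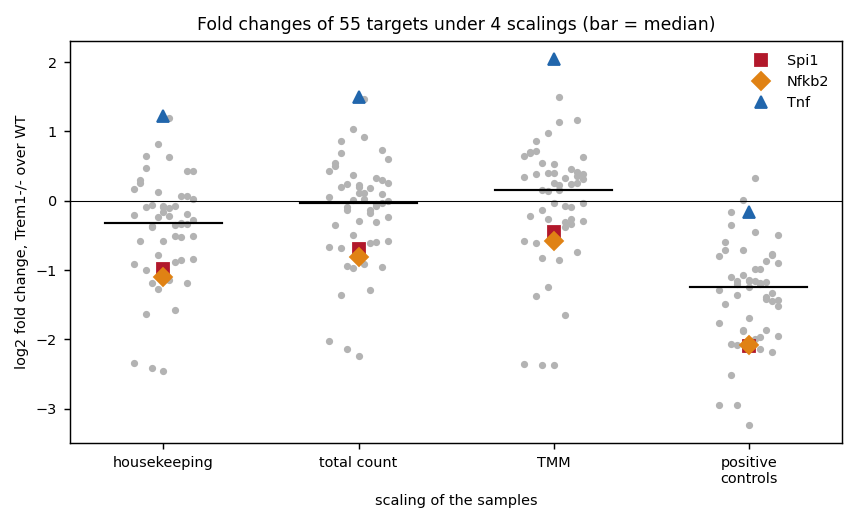
Log2 fold change, Trem1-/- over WT, of the 55 targets in the control intestine under 4 scalings, with bars at the medians (-0.33, -0.03, 0.16 and -1.24). Spi1 and Nfkb2 are below 0 in each, and Tnf is above 0 in all but the positive-control scaling, at -0.17.

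With housekeeping scaling, the 2 called genes were lower in Trem1-/- cells of the inflamed intestine too. Spi1 was at 24681 to 32547 in the 7 Trem1-/- samples and at 46690 to 97756 in the 5 WT samples there (-1.39, adjusted p = 3.17e-05). Nfkb2 differed by -1.22 in inflamed intestine (adjusted p = 0.000979). In bone marrow monocytes Spi1 differed by -0.82 and Nfkb2 by -0.57, and neither passed the test with 3 mice of each genotype (adjusted p = 0.239 and 0.6). The genotype difference passed the threshold for 18 of 55 genes in inflamed intestine (32.7%) and for 1 of 55 in marrow (1.82%). These inflamed and marrow tests were run with housekeeping scaling alone, and how they depend on the scaling was not tested.

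A direct test of whether the genotype difference was unlike that of inflamed intestine passed for 2 of 55 genes (3.64%). Il10, an anti-inflammatory cytokine, differed by -0.21 between genotypes in control intestine and by 1.53 in inflamed intestine, a difference of -1.74 (edgeR, adjusted p = 0.013). Its levels in control intestine were 3189, 2721, 3323, 3953 and 2355 in Trem1-/- mice and 4885, 2553, 3958, 5051 and 1493 in WT mice, and in inflamed intestine 23278 to 52988 in Trem1-/- mice and 11179 to 20171 in WT mice. Cd80, a costimulatory ligand for T cells, differed by -0.10 in control and by -1.58 in inflamed intestine, a difference of 1.48 (edgeR, adjusted p = 0.0213). It was at 10362, 15720, 10237, 11240 and 10999 in Trem1-/- mice and at 11494, 9224, 20611, 7613 and 13734 in WT mice of the control intestine. The Cd80 call was lost without WT or Trem1-/- mouse 2 of the control intestine or WT mouse 2 or 5 of the inflamed intestine (adjusted p up to 0.0619). It was also lost with TMM scaling (1.35, adjusted p = 0.069), with positive-control scaling (1.24, adjusted p = 0.097) and with the authors' values (1.16, adjusted p = 0.268). The Il10 call was lost with the authors' values too (limma, -1.95, adjusted p = 0.193). Neither Spi1 nor Nfkb2 passed that test.

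Against bone marrow monocytes, the genotype difference was unlike for 1 of 55 genes (1.82%). H2-Ab1 differed by -0.34 in control intestine and by -5.38 in marrow, a difference of 5.04 (edgeR, adjusted p = 0.0458). In marrow it was at 152, 80.2 and 76.4 in Trem1-/- mice and at 2695, 9972 and 227 in WT mice, so WT mice 1 and 2 stood above the others. Without WT marrow mouse 2 the difference was 3.49 (adjusted p = 0.6), and without WT marrow mouse 1 it was 5.29 (adjusted p = 0.0488). The call was lost in 21 of the 28 fits that left out 1 sample. Over the 55 genes, the genotype differences in control and inflamed intestine had a Pearson r of 0.40, with 30 genes below 0 in both and 9 above 0 in both. Those in control intestine and marrow had an r of 0.27, with 34 genes below 0 in both and 8 above. The genes share their samples and the scaling, and these values are descriptions.

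**Figure D5:**
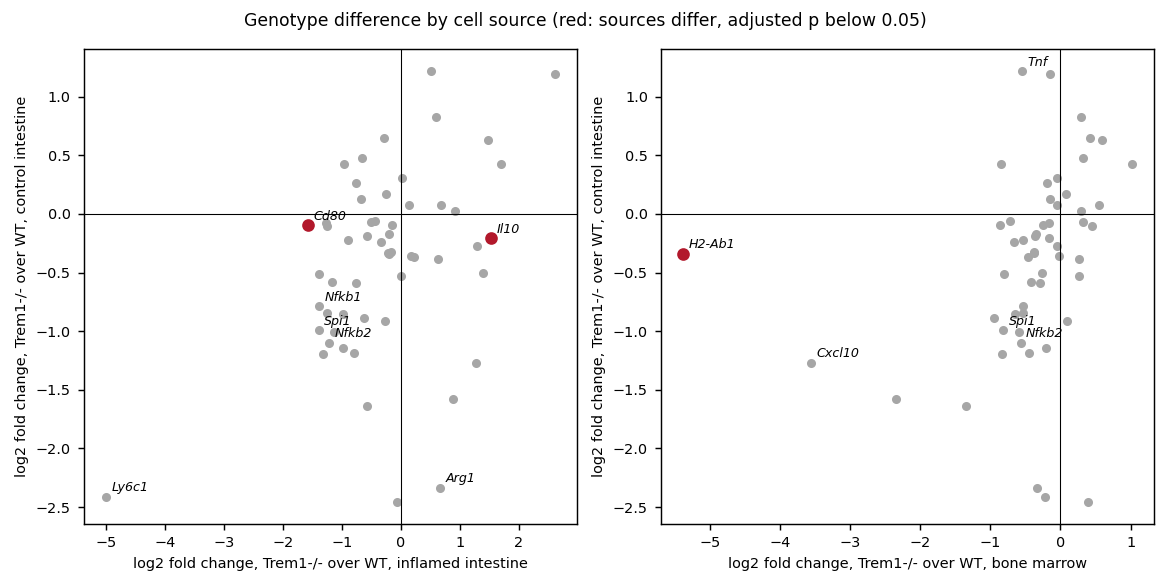
Genotype difference of the 55 targets in the control intestine (log2 fold change, Trem1-/- over WT, vertical) against that in inflamed intestine (left) and in bone marrow monocytes (right). Red points are genes whose difference changed with the source, Il10 and Cd80 on the left and H2-Ab1 on the right; Spi1 and Nfkb2 lie below 0 on all axes.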

How the data were processed

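Per the labels' protocols, target-specific primers pre-amplified the cDNA of 100 sorted cells before nCounter probes were hybridised to it. The authors deposited raw barcode values, which were whole counts in some samples and expected counts, a whole number times 1.33, 1.333 or 2, in others; dividing restored whole numbers within a tolerance of 0.0001. The plan assumed plain counts, so the values as deposited became an alternative. The authors also deposited normalised values, a score of unstated scaling used only as an alternative. The counting software is not given in the sources used here.

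Members and lists were chosen with earlier results of these data known. All 55 members may be named; values per sample were given for called genes, the 8 largest uncalled changes, the 5 highest levels and TREM1 signalling genes, for genes whose difference changed between sources, and, chosen after their values were seen, for Nfkb1, Mrc1 and Retnla. Some members enter the counts and list summaries but are not reported here individually. A gene was tested where it exceeded background (mean plus 2 SD of the 5 negative probes) in at least 3 samples of the fit, as all 55 did. edgeR 4.0.16 was the main test; limma 3.58.1 and DESeq2 1.42.0 (R 4.3.3) were alternatives, and the procedure was tested on simulated data. Inflamed samples entered the intestinal fit, and the 6 marrow samples were added for the fit against marrow.

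Counts follow amplification without molecular identifiers, so depth covers counting error only. No pair of samples of 1 group matched within counting noise (chi-square per degree of freedom at least 276). Mouse numbers did not pair the genotypes: same-numbered deviations correlated between -0.66 and 0.23, over 0.1 in 2 of 5 pairs.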

Additional observations from a re-analysis of the deposited data

Results flagged for a closer look

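Among 110 checks of a gene within 1 genotype of the control intestine, 4 had a sample set apart by Dixon's test, where chance flags about 1 in 20. Cd80 was at 15720 in Trem1-/- mouse 2, against 10237 to 11240 in the other Trem1-/- mice. The other 3 were in WT mouse 5: Ccl7, a monocyte chemoattractant, at 442 against 71.3 to 116 in the other WT mice, Il6 at 41.4 against 69.6 to 75.6, and Irf4 at 2150 against 5381 to 6708.

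The genotype difference, Trem1-/- over WT, was unlike between control and inflamed intestine for Cd80 (1.48, adjusted p = 0.0213) and Il10 (-1.74, adjusted p = 0.013), and between control intestine and marrow for H2-Ab1 (5.04, adjusted p = 0.0458).

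Between whole-count and multiplied samples of the control intestine it was unlike for 14 genes by edgeR's interaction term. The difference, whole-count minus multiplied, was above 0 for Tnf (3.53), Itgb7 (1.47), Cd14 (1.16) and Card9 (1.10). It was below 0 for Cxcl11 (-4.62), Ly6c1 (-4.0), Siglec1 (-3.53), Arg1 (-3.45), Cxcl10 (-3.22), Tlr1 (-2.83), Il6 (-2.68), Mrc1 (-2.45), Ccr9 (-2.25) and Fcgr1 (-1.79). The adjusted p values ran from 0.000657 for Tnf to 0.0469 for Tlr1.

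Trem1 and Retnla had values in the 10 WT samples from intestine, and their entries were blank in the Trem1-/- and bone marrow samples, with WT medians of 740.2 for Trem1 and 53.0 for Retnla in control intestine.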

How the results depend on the processing

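For the genotype difference in control intestine, the count of genes past the threshold was 2 and became 0 with TMM scaling (9 at an unadjusted p below 0.05), 0 with total-count scaling (9 likewise), 0 with exact permutation tests (9 likewise), 29 with positive-control scaling, 4 without Rpl19 in the scaling, 6 with the multiplier class as a block, 12 with the authors' normalised values, 11 in whole-count samples only, 13 in multiplied samples only, and 33 with limma and positive-control scaling, an alternative chosen after seeing the data. Same-numbered mice share only a number; with mouse number as a replicate block 1 gene passed, and 1 passed in the test against inflamed intestine. Omitting 1 sample at a time gave 1 to 6 genes, the 6 without WT control mouse 5 or without Trem1-/- control mouse 5, and 1 without WT control mouse 2 or 3 or Trem1-/- control mouse 2, 3 or 4. Without WT inflamed mouse 2 it was 4. Spi1 kept its call in 38 of 41 alternatives and Nfkb2 in 30 of 41. Leaving out an inflamed sample or changing the low-count filter moved neither fold change, so those alternatives say little. The count of 0 with exact permutation tests is limited by the smallest p they allow, 0.0079. Besides the losses in the report, Nfkb2 lost its call in whole-count samples only (-0.90, adjusted p = 0.0979) and with the mouse-number block (-1.04, adjusted p = 0.0635). In multiplied samples only, Ly6c1 (0.63), Arg1 (0.25), Siglec1 (0.75), Cxcl10 (0.89) and Tnf (-1.0) changed sign, and Tnf did so with positive-control scaling (-0.17); the cause was not tested. The count for control against inflamed intestine was 2 and became 8 with DESeq2, 1 with positive-control scaling, 4 with the class block and 0 with the authors' values, and 1 to 4 with a sample omitted. The count against marrow was 1 and became 0 with TMM, total-count or positive-control scaling, limma, the class block, the replicate block or the authors' values, and 0 to 1 with a sample omitted. The 14 genes that changed with the class became 7 without Trem1-/- mouse 1 or 2 and 17 without WT mouse 5. The positive-control difference was 0.79 to 1.08 with a sample omitted, losing its adjusted call without any 1 of the 5 WT mice. The groups still did not overlap there, so that loss came with the fewer arrangements of the smaller test. The total-count difference was -0.54 to -0.32 with a sample omitted. Tlr2 and Il6 lay near background in some samples, which limits what their counts can show. With mouse number as a block Cd80 lost its call against inflamed intestine (1.42, adjusted p = 0.103).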
